A study of Oryza sativa with 6 samples.

Results

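A group of 30 genes annotated with regulation of transcription was described in rice leaves of the *Dap1* mutant and of the wild type (WT, the variety ZH11), leaving aside the heat stress factors, the MADS-box factors and the factors of hormone signalling. Of the 925 genes in the deposited table, 51 carry the Gene Ontology (GO) process regulation of transcription, DNA-templated. From these were removed 5 heat stress factors, 5 MADS-box factors, *OsIRO2*, 6 genes in the KEGG class signal transduction, 2 further genes whose GO process names a hormone, *RISBZ1*, which had 3 counts or fewer in every WT library, and *OsGATA1*, which had 3 counts or fewer in every *Dap1* library. This left 30 genes. *NFYC6* was kept, because its term hormone-mediated signaling pathway names no hormone. Just outside the limit of 3 counts, *RISBZ1* had 10, 14 and 7 counts in *Dap1* and 1, 2 and 0 in WT, and *OsGATA1* had 2, 2 and 2 counts in *Dap1* and 9, 7 and 16 in WT. Just inside it, *OsSCRL* had 1, 3 and 6 counts in *Dap1* and 22, 9 and 13 in WT.

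*Dap1* carries a T-DNA inserted upstream of *OsWUS* in the ZH11 background, and WT is ZH11 without the insertion. The study describes the mutant plants as heterozygous and recovered no homozygous seedlings, while the sample labels give the genotype simply as Dap. Leaves were taken at the booting stage from 3 *Dap1* and 3 WT samples that the labels call biological replicates, from plants grown in the field. *Dap1* headed later than WT and the day and hour of sampling are not given in the sources used here, so genotype and sampling time cannot be told apart. Counts of *OsWUS* were 77, 100 and 105 in *Dap1* and 0 in each WT library, which goes with the labels. The table lists genes that the authors called changed, so none of its genes is an unselected one.

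Transcription factors bind short DNA motifs near genes and raise or lower their transcription, and plants hold them in large families that share a DNA-binding domain. Several families are found in plants alone or are greatly expanded there. The NAC, WRKY and AP2/ERF families are known for roles in stress and defence and in organ boundaries, MYB and bHLH proteins for pigment, cell fate and hormone responses, bZIP proteins for light, stress and seed programmes, and GRAS proteins for meristems and root patterning. NF-Y is a complex of A, B and C subunits that binds the CCAAT box, and Dof proteins are plant factors with a single zinc finger.

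Across the 30 genes, 8 were higher and 22 were lower in *Dap1* leaves (edgeR's quasi-likelihood test, adjusted p under 0.05 over 925 genes and an absolute log2 fold change over 1). All listed genes had been chosen on this same contrast, and 98.6% of them passed these limits, 56.9% as higher and 41.7% as lower, so the counts are a description and no p-value is given. For the same reason the FPKM ranges (a gene's fragments scaled by its transcript length and by the mapped fragments of the library) of the groups did not overlap for 30 of the 30 genes, against 99% of all listed genes. The median log2 fold change was -1.16 over the 30 genes and 1.15 over the 925. Changes of more than 2 on the log2 scale were found in 4 of the 30 genes, or 13.3%, against 34.4% of all listed genes. Genes with 3 counts or fewer in every library of a genotype were removed from the group but remain among the 925. Of these, *RISBZ1* was at 3.19 and *OsGATA1* at -2.37, so the rule set this share in part. The split depends on how libraries are scaled. The library sizes used here come from FPKM, which is scaled by the mapped fragments of each library. TMM and DESeq2 factors were computed over the listed genes alone, which had been chosen for changing. TMM factors shift the median of all listed genes by -0.45 on the log2 scale and left 4 of the 30 genes called higher and 22 lower (342 and 393 of all listed genes), *OsCCT25*, *OsGRAS23*, *NUS1* and *OsERF#141* falling short. Size factors of DESeq2 shift it by -0.85 and left 3 higher and 22 lower (251 and 393 of all listed genes), *OsWRKY55* falling short as well. So over all listed genes the larger share of calls was higher with the library sizes used here (526 against 386) and lower with either of these factors. None of the 30 genes changed direction under any of the settings tried (0 reversals). All had been chosen for a change over 1 in these libraries and the scaling shifts were smaller, so this is no sign of stability.

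**Figure D1:**
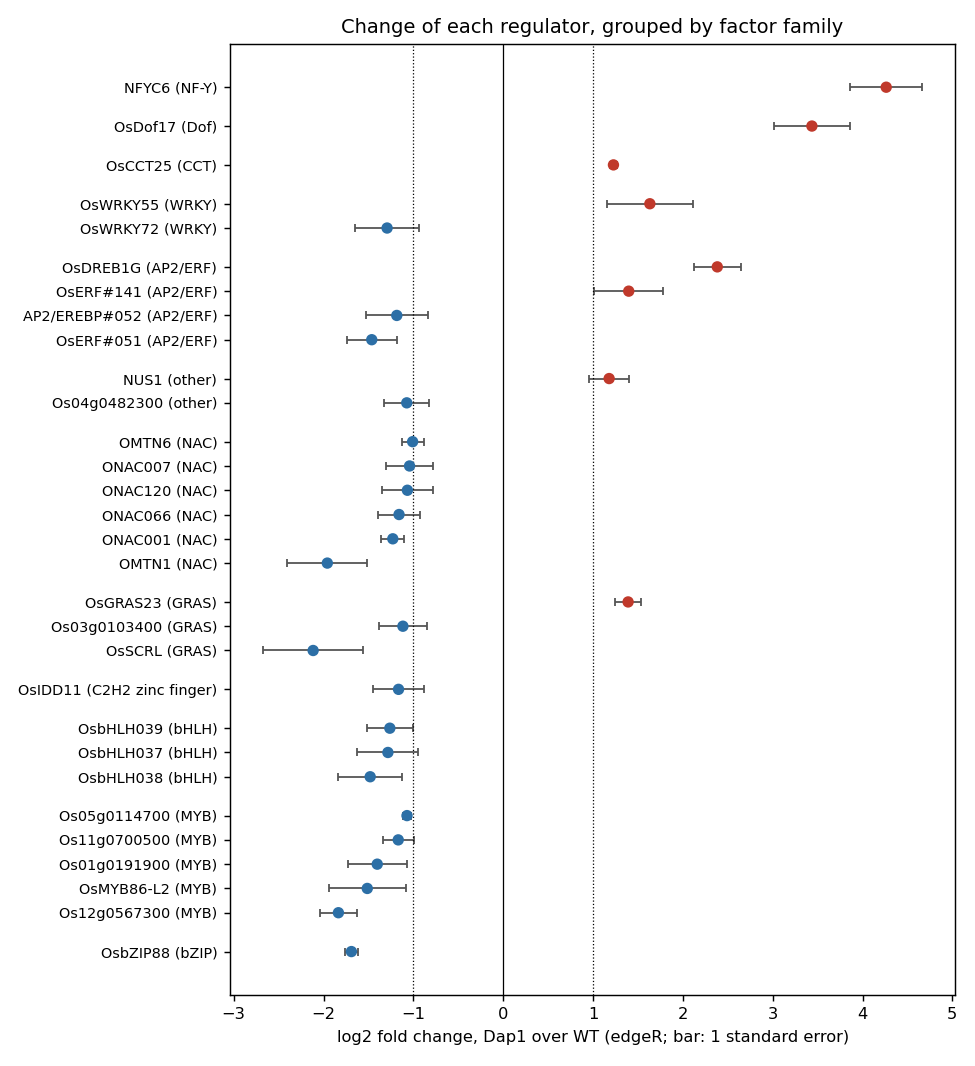
Log2 fold change, *Dap1* over WT, of each of the 30 regulators (edgeR, points), with 1 standard error as a bar, grouped by factor family; dotted lines mark -1 and 1. The genes of the MYB, NAC and bHLH families all lie to the left of 0, and *NFYC6*, at 4.26, lies farthest to the right.

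Within the 30 genes some families held 1 direction and others both, which was not tested. All 6 NAC, all 5 MYB and all 3 bHLH genes were lower in *Dap1*, as were the single bZIP and C2H2 zinc finger genes. The single CCT, NF-Y and Dof genes were higher. AP2/ERF was split into 2 higher and 2 lower genes, GRAS into 1 higher and 2 lower, and WRKY into 1 higher and 1 lower. Genes of these families outside the 30, set aside by the rules or lacking the GO process, went both ways. Of these, 3 bHLH genes were called higher and 3 lower, and 3 bZIP genes higher and 2 lower. The MYB-like *MID1* was called higher and *OsMyb4*, a MYB gene by its symbol alone, lower. The CCT gene *GHD7* and *WRKY76* were called lower. Between the highest and lowest genes of a family, the log2 fold change differed by 3.85 (standard error 0.385) in AP2/ERF, by 3.51 (standard error 0.579) in GRAS and by 2.93 (standard error 0.601) in WRKY, whereas in bHLH it differed by 0.22 (standard error 0.438). In NAC and MYB the differences were 0.95 (standard error 0.464) and 0.76 (standard error 0.215). These differences were chosen as the extremes of each family and were not tested.

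Of the 30 genes, 3 made up most of the summed level of this group, and their order differed between the genotypes. *OsCCT25* (*Os06g0699600*) encodes a protein with a CCT domain, a domain named after CONSTANS, CONSTANS-like and TOC1, proteins of Arabidopsis known from flowering time and the circadian clock. Its FPKM was 34.78, 34.19 and 35.65 in *Dap1*, against 14.81, 14.77 and 15.11 in WT, a log2 fold change of 1.23 (standard error 0.0434). *OsbZIP88* (*Os12g0601800*), a basic leucine zipper factor, had an FPKM of 13.94, 14.35 and 13.20 in *Dap1*, against 44.01, 41.78 and 47.91 in WT. Replicates of a group lay close together for both genes, and the distance between the groups was many times the spread within them. The log2 fold change of *OsbZIP88* was -1.69 (standard error 0.0706). The third gene, *Os05g0114700*, is described as having a Myb-type DNA-binding domain, and had 18.21, 17.51 and 17.34 FPKM in *Dap1* and 37.38, 37.71 and 36.35 in WT, a log2 fold change of -1.07 (standard error 0.0476). By mean FPKM the order was *OsCCT25*, *Os05g0114700* and *OsbZIP88* in *Dap1*, and *OsbZIP88*, *Os05g0114700* and *OsCCT25* in WT. In WT replicate 1, however, *OsCCT25* was at rank 4, as the NAC gene *OMTN6* had an FPKM of 14.97 there. *OsCCT25* held 32.8% ± 0.175 (SD, n = 3) of the summed FPKM of the 30 genes in *Dap1* and 9.48% ± 0.271 (SD, n = 3) in WT, and *OsbZIP88* held 13.0% ± 0.786 (SD, n = 3) in *Dap1* and 28.3% ± 1.95 (SD, n = 3) in WT. Such shares are taken within a library and do not depend on its scaling. Together the 3 genes held 62.5% of the summed FPKM in *Dap1* and 61.4% in WT. Summed over all 30 genes, FPKM was 106 ± 2.0 (SD, n = 3) in *Dap1* and 157 ± 4.04 (SD, n = 3) in WT.

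**Figure D2:**
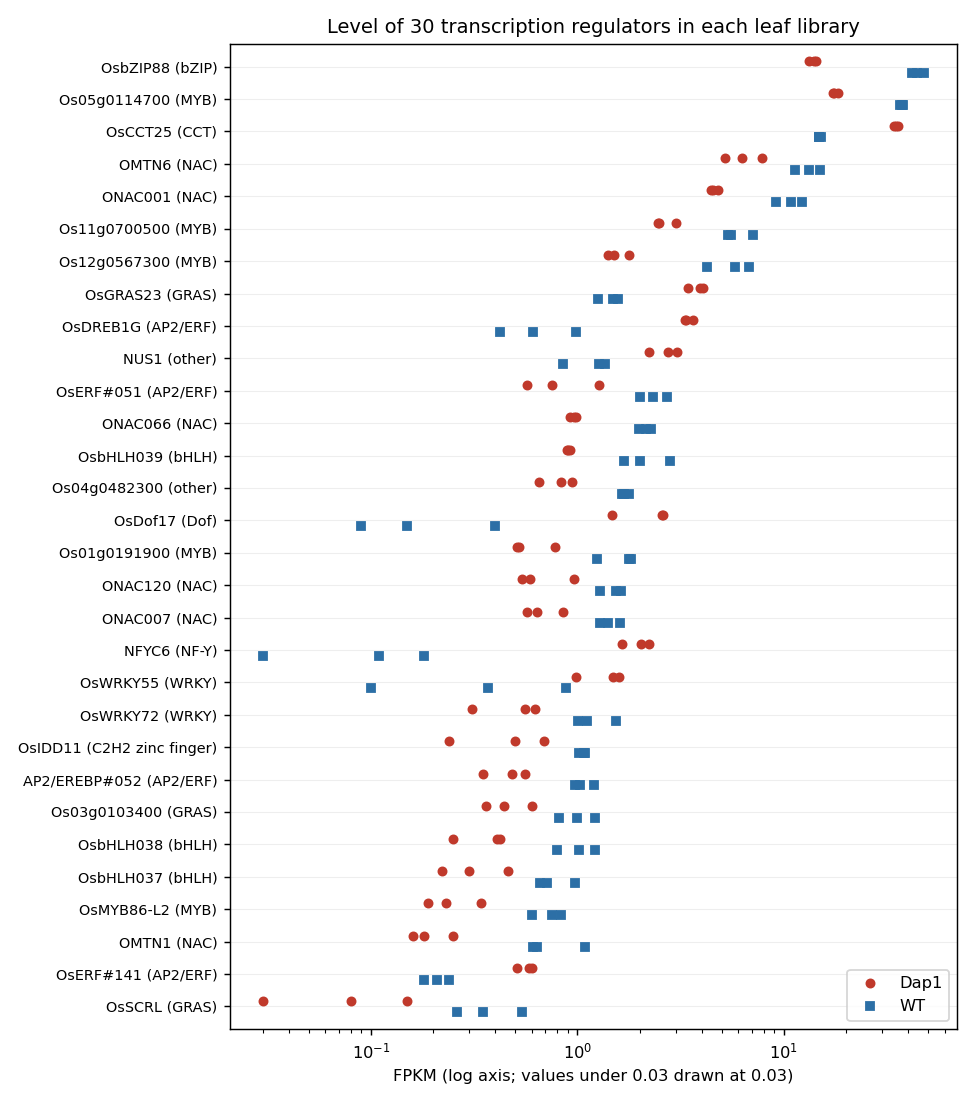
FPKM of each of the 30 regulators in every library on a log axis, with *Dap1* (circles, above) and WT (squares, below), ordered by mean FPKM. No *Dap1* point lies within the WT range of its gene, and the most strongly expressed genes, at the top, have tightly grouped replicates.

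*NFYC6* and *OsDof17* stood near the detection limit in WT. In *Dap1* their mean FPKM of 1.97 and 2.21 was near the median of all listed genes, 1.90. *NFYC6* is listed as the reconstructed transcript MSTRG.982 and is described as a nuclear factor Y protein; its name is that of the C subunit, which joins the B and A subunits to bind CCAAT. It had 53, 71 and 79 counts in *Dap1* and 4, 0 and 6 in WT, or an FPKM of 1.97 ± 0.291 and 0.0967 ± 0.0907 (SD, n = 3 each). Its log2 fold change of 4.26 (standard error 0.402) was the highest of the 30. It was 3.78 without WT replicate 2 and 4.96 without WT replicate 3. *OsDof17* (*Os04g0678400*), a Dof zinc finger factor, had 50, 31 and 56 counts in *Dap1* and 2, 7 and 3 in WT. Its log2 fold change was 3.44 (standard error 0.426), and it was 3.04 without WT replicate 1 and 4.19 without WT replicate 2. So few counts in WT leave both folds loosely bounded, although every *Dap1* library had at least 31 counts and no WT library of either gene more than 7.

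Among the AP2/ERF genes, *OsDREB1G* (*Os02g0677300*) was the highest. It is described as similar to CRT/DRE binding factor 1, a member of the group that in Arabidopsis switches on cold-response genes. Counts were 76, 89 and 83 in *Dap1*, against 16, 20 and 10 in WT, and the log2 fold change was 2.38 (standard error 0.264). FPKM was 3.44 ± 0.170 in *Dap1* and 0.670 ± 0.285 in WT (SD, n = 3 each), which placed *OsDREB1G* at rank 7 of the 30 genes in *Dap1* and at rank 25 in WT. The other higher gene, *OsERF#141* (*Os02g0638650*), was weakly expressed, with 21, 20 and 24 counts in *Dap1* and 10, 6 and 8 in WT, a log2 fold change of 1.40 (standard error 0.384). *OsERF#051* (*Os10g0371100*) had the lowest log2 fold change of the family, -1.46 (standard error 0.281), with 28, 18 and 14 counts in *Dap1* and 60, 40 and 64 in WT. *AP2/EREBP#052* (*Os05g0536250*) had 13, 12 and 9 counts in *Dap1* and 26, 25 and 25 in WT, a log2 fold change of -1.18. The opposite directions left the summed FPKM of the 4 genes at 5.33 ± 0.476 in *Dap1* and 4.30 ± 0.131 in WT (SD, n = 3 each).

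NAC proteins, named after NAM, ATAF and CUC, act in stress responses, leaf ageing and the boundaries between organs. The 6 NAC genes together had a summed FPKM of 12.20, 13.50 and 14.94 in *Dap1*, against 33.15, 27.73 and 28.40 in WT, so that the highest *Dap1* library was well under the lowest WT library. Most of this came from *OMTN6* and *ONAC001*. *OMTN6* (*Os08g0200600*), annotated as a negative regulator of drought tolerance, had 137, 175 and 226 counts in *Dap1* and 445, 266 and 353 in WT. Its log2 fold change of -1.01 (standard error 0.123) was the smallest in size of the 30. *ONAC001* (*Os09g0509100*) had 105, 106 and 111 counts in *Dap1*, against 313, 216 and 213 in WT, and its log2 fold change was -1.23 (standard error 0.13). The largest fall of the family was that of *OMTN1* (*Os02g0579000*), at -1.96 (standard error 0.447) on the log2 scale, with 4, 7 and 5 counts in *Dap1* and 19, 14 and 29 in WT. The OMTN genes are named as rice NAC genes targeted by the microRNA miR164. *ONAC066* (*Os03g0777000*), described as similar to the ABA-responsive ANAC019 of Arabidopsis, had 24, 25 and 27 counts in *Dap1* and 62, 45 and 60 in WT, a log2 fold change of -1.16 (standard error 0.235). *ONAC007* (*Os06g0131700*), similar to NAM, had 18, 22 and 30 counts in *Dap1* and 59, 36 and 47 in WT, a log2 fold change of -1.04 (standard error 0.258). *ONAC120* (*Os10g0477600*), similar to NAM and CUC2-like proteins, which in petunia and Arabidopsis set organ boundaries, had 14, 27 and 17 counts in *Dap1* and 46, 38 and 35 in WT. The log2 fold change of *ONAC120* was -1.07 (standard error 0.287). Of the NAC genes, 3 lay so near the threshold that 1 library decided the call. *OMTN6* was at -0.89, -0.98 and -0.90 without *Dap1* replicate 1, *Dap1* replicate 2 and WT replicate 1. For *ONAC007* the same omissions gave -0.93, -0.99 and -0.94. *ONAC120* was at -0.92 without *Dap1* replicate 1, at -0.95 without *Dap1* replicate 3 and at -0.9997 without WT replicate 2.

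The 5 MYB genes covered a wide range of levels. Apart from *Os05g0114700*, they summed to 5.01, 5.21 and 4.97 FPKM in *Dap1* and 14.36, 15.38 and 12.02 in WT. *Os12g0567300*, which shares the symbol R2R3-MYB with *Os01g0191900*, was the lowest of the family, at -1.83 (standard error 0.209) on the log2 scale. It had 29, 34 and 41 counts in *Dap1* and 163, 109 and 93 in WT. *Os11g0700500* is described as similar to MYB305 of snapdragon, where that protein acts on flavonoid genes in flowers, and had 53, 69 and 58 counts in *Dap1* and 137, 136 and 121 in WT, a log2 fold change of -1.17 (standard error 0.172). *Os01g0191900*, described as similar to Blind, a tomato gene needed for side shoots, had 15, 11 and 11 counts in *Dap1* and 28, 31 and 37 in WT, a log2 fold change of -1.40 (standard error 0.327). *OsMYB86-L2* (*Os05g0543600*), annotated with stomatal movement, was weakly expressed, with 8, 5 and 6 counts in *Dap1* and 23, 16 and 15 in WT, a log2 fold change of -1.51 (standard error 0.431).

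The 3 bHLH genes changed by similar amounts. *OsbHLH039* (*Os09g0410700*) had an FPKM of 0.89, 0.92 and 0.90 in *Dap1*, against 2.82, 2.0 and 1.68 in WT, where replicate 1 was the highest. *OsbHLH038* (*Os08g0432800*) had 11, 7 and 12 counts in *Dap1* and 37, 24 and 22 in WT, and *OsbHLH037* (*Os01g0218100*) had 17, 12 and 9 counts in *Dap1* and 42, 24 and 26 in WT. WT replicate 1 was again the highest library of both genes, in FPKM as well. The log2 fold changes of the 3 genes were -1.26, -1.48 and -1.28, with standard errors of 0.254, 0.357 and 0.34.

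GRAS proteins are plant regulators whose best known members are the DELLA and SCARECROW proteins. *OsGRAS23* (*Os04g0590400*), annotated with the response to drought stress, had 156, 193 and 205 counts in *Dap1* and 83, 52 and 72 in WT. That is a log2 fold change of 1.39 (standard error 0.148). *OsSCRL* (*Os03g0723000*) had the lowest mean FPKM of the 30 genes over all 6 libraries and in *Dap1*, though not in WT, where it was rank 27. Its log2 fold change of -2.12 (standard error 0.559) ranged from -2.79 to -1.74 with 1 library left out. *Os03g0103400* had 29, 23 and 19 counts in *Dap1* and 68, 35 and 50 in WT, a log2 fold change of -1.12 that was -0.95 without *Dap1* replicate 3 and also -0.95 without WT replicate 1.

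WRKY factors bind the W-box and are known for roles in defence. *OsWRKY55* (*Os03g0321700*) had 24, 16 and 25 counts in *Dap1* and 2, 12 and 6 in WT, so the lowest *Dap1* library and the highest WT library were near each other, at an FPKM of 0.98 and 0.88. Its log2 fold change of 1.63 (standard error 0.482) was 2.46 without WT replicate 2 and 1.13 without WT replicate 1. *OsWRKY72* (*Os11g0490900*) had 13, 7 and 13 counts in *Dap1*, against 27, 19 and 34 in WT, which gave a log2 fold change of -1.29 (standard error 0.359).

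*OsIDD11* (*Os01g0572300*) has a C2H2 zinc finger and belongs to the family named after INDETERMINATE1 of maize, which promotes flowering there. Counts were 32, 12 and 26 in *Dap1* and 59, 43 and 53 in WT. *Dap1* replicate 2 was the lowest library, and the log2 fold change was -1.17 (standard error 0.286) over all libraries and -0.84 without that replicate.

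The remaining genes of the group are not DNA-binding factors by their descriptions. *NUS1* (*Os03g0656900*), a plastid RNA-binding protein for chloroplast RNA metabolism, was the one gene of the 30 annotated to the chloroplast, and it was higher in *Dap1*, with 78, 68 and 96 counts against 42, 22 and 41 in WT. The log2 fold change was 1.18 (standard error 0.222). *Os04g0482300*, a Kelch-domain protein annotated with histone acetylation, had 26, 25 and 20 counts in *Dap1* and 53, 42 and 52 in WT. Its log2 fold change of -1.07 (standard error 0.25) was -0.94 without *Dap1* replicate 3.

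**Figure D3:**
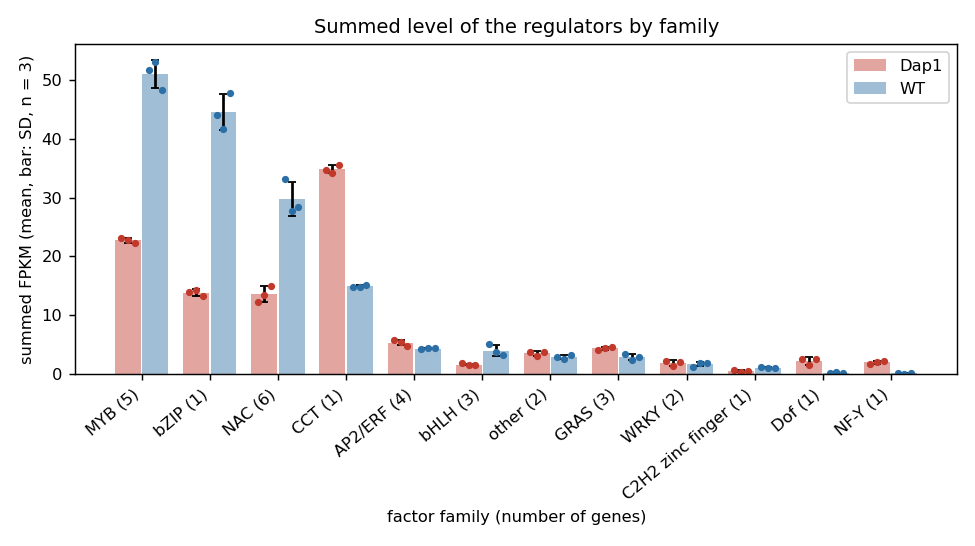
Summed FPKM of the regulators of each family (bars: mean, error bars: SD, points: libraries, n = 3 for each genotype; *Dap1* left, WT right), with the number of genes in brackets. MYB, bZIP and NAC sums are lower in *Dap1*, at 22.8, 13.8 and 13.5, against 51.1, 44.6 and 29.8 in WT, and the CCT gene is higher.

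Depth differed widely among the 30 genes. 6 of the 30 genes had a mean count of at least 100, and 8 had a mean count under 20. The coefficient of variation of FPKM for *OsCCT25* was 2.11% in *Dap1* and 1.25% in WT, and that of *OsSCRL* was 69.6% in *Dap1* and 37.3% in WT. With 3 libraries a group such values are rough, and the order was not strict: *OMTN6*, with a mean count of 267, had 20.3% in *Dap1*, and *OsERF#141*, with a mean count of 14.8, had 8.39%. Counts scaled by the library sizes gave log2 ratios within 0.05 of those of FPKM for all 30 genes. The sizes were themselves taken from count over FPKM, so this closeness was largely fixed in advance. When edgeR tested directly for a change beyond 1 on the log2 scale, 6 of the 30 genes were called higher and 8 lower, and of all 925 listed genes 407 were higher and 232 lower. *NFYC6*, *OsDof17*, *OsDREB1G*, *OsbZIP88*, *Os05g0114700*, *Os12g0567300* and *ONAC001* were the 7 genes called in every alternative. With 1 library left out at a time, 6 genes lost the call in at least 1 case, all of them named above.

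**Figure D4:**
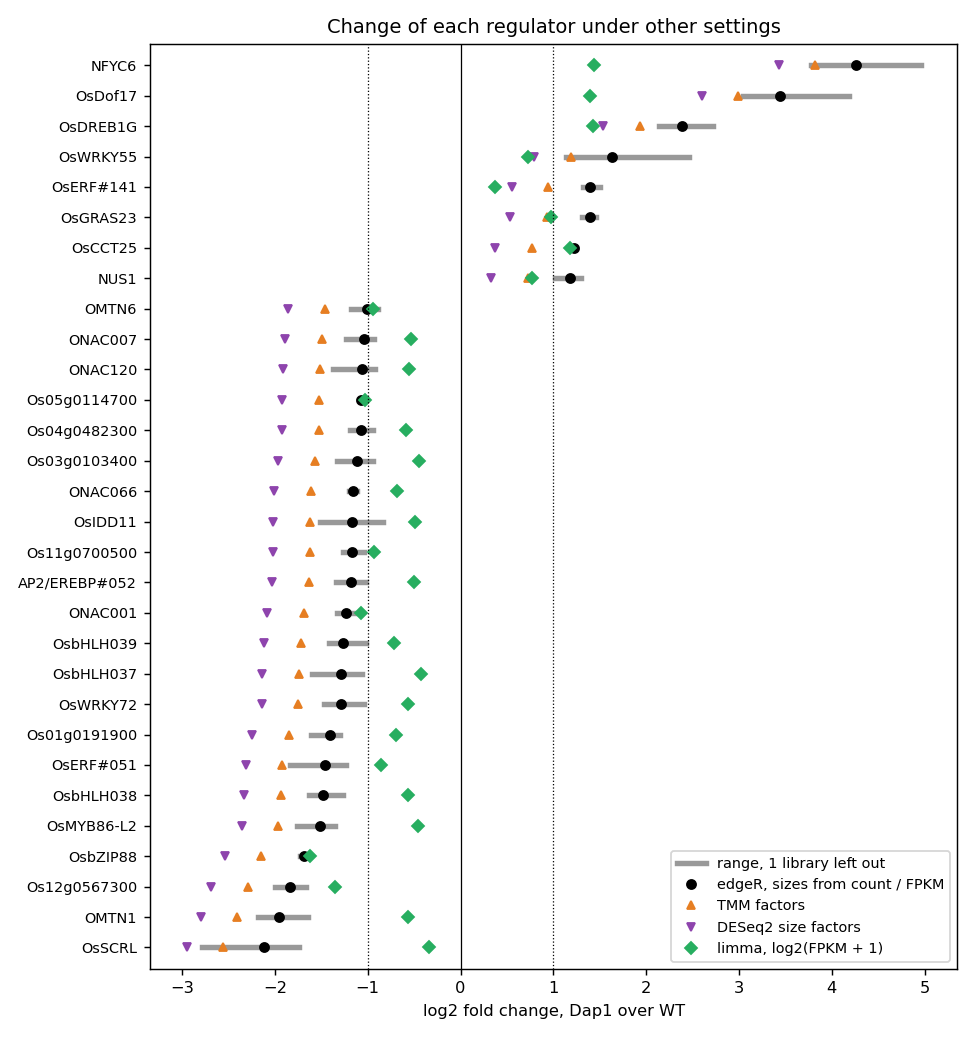
Log2 fold change, *Dap1* over WT, of each regulator with the library sizes taken from count over FPKM (black), with TMM factors, with DESeq2's size factors, with limma on log2(FPKM + 1), and over the omission of each library (grey bar). TMM and DESeq2 factors move every gene to the left by about 0.45 and 0.85, and limma draws weakly expressed genes toward 0. No gene crosses 0, for which the choice of genes with a change over 1 left little room.

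Other transcription regulators in the table went both ways. The 21 genes with the same GO process that were set aside held 10 higher and 11 lower genes, with a median log2 fold change of -1.07. All 5 heat stress factors among them were higher, so the remaining set-aside genes also leaned toward lower. A further 14 genes have a factor family or transcription factor activity in their annotation without this GO process, and 7 of them were called higher and 6 lower (median 0.02). The exclusions made for the 30 genes were not applied to these 14, which include *OsWUS*, *GHD7*, *MADS62* and genes with few counts. The difference of these shares from that of the 30 genes was not tested, since all were chosen on the same contrast.

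Other gene groups moved in the same libraries. Of 27 genes with the GO process response to heat, 26 were higher in *Dap1* (96.3%, against 56.9% of all listed genes). The summed FPKM of the 27 was 2652 to 2667 in *Dap1* and 485 to 495 in WT. Of 6 core histone genes, which dividing cells express strongly, 5 were lower (83.3%, against 41.7% of all listed genes). The summed FPKM of the 6 was 91.4 to 99.4 in *Dap1* and 200.4 to 218.5 in WT. Of 9 photosynthesis genes, 6 were higher (66.7%, against 56.9% of all listed genes) and 2 lower. Their summed FPKM was 2482 to 2511 in *Dap1* and 866 to 882 in WT. That sum rested on few genes: the highest mean FPKM was 827, and the median was 3.75 in *Dap1* and 2.27 in WT. The part of these gene groups in the values of the 30 regulators was not tested. None of 5 leaf markers and none of 8 markers of meristem and young panicle is among the 925 listed genes (0 of each), so the tissue could not be checked from them. In RNA from whole leaves, fewer cells of a type and less RNA per cell cannot be told apart.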

How the data were processed

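Poly(A) RNA from leaves of 3 *Dap1* and 3 WT samples was sequenced. The authors used Fastp for read filtering, Bowtie2 against rRNA, HISAT2 for alignment to Nipponbare, StringTie for transcripts and RSEM for expression. Versions, genome build and strand setting are not given in the sources used here. Raw counts and FPKM per library, as the authors deposited them, were taken for the 925 genes that they called changed. The authors' mean FPKM, log2 fold change, p-value and FDR columns of the deposited table were not used. Depth over all genes is unknown; the listed genes had 601642 to 666483 counts in *Dap1* and 244181 to 314019 in WT.

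The genes were selected by GO process, KEGG class, description and counts, and grouped by the family word in the description or symbol. By the rule for named genes all 30 are reported, with values in every library for the gene of each family with the largest change, that with the highest mean FPKM, every gene of families of 3 or fewer, and the 8 genes with the highest mean FPKM. The genes and lists were chosen with earlier results of these data known. Relative library sizes were the median of count over FPKM for 258 genes that reached an FPKM of 2 in all 6 libraries (0.952 to 1.06 in *Dap1*, 0.862 to 1.11 in WT). All 925 genes were fitted with edgeR 4.0.16 in R 4.3.3, without a filter or replicate block, with Benjamini-Hochberg adjustment of the p-values. Standard errors are the size of the estimate over the root of its F value. On simulated counts for 925 genes with 200 changed by 2 on the log2 scale, edgeR recovered 97% with 1 false call. The simulation took library sizes as known and left most genes unchanged. The 30 genes had a median absolute log2 fold change of 1.29, so this recovery does not carry over to them. Alternatives used TMM, DESeq2 1.42.0, limma 3.58.1 on log2(FPKM + 1) and log2(FPKM + 0.1), genes above a mean count of 10, replicate number as a block, edgeR's glmTreat with a limit of 1 (log2), and the omission of each library or of *NFYC6*. None of the identifiers matched the RefSeq gene table (0 of 925), so no coordinates or sequences are given. Within-group replicate pairs differed beyond sampling noise (chi-square per degree of freedom of 1.81 to 2.20). Tables and plots were made in Python 3.11.15 with matplotlib 3.10.9, pandas 2.3.3 and scipy 1.17.1.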

Additional observations from a re-analysis of the deposited data

How the results depend on the processing

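Of the 30 genes, 8 were called higher and 22 lower, with a median log2 fold change of -1.16. TMM factors gave 4 higher and a median of -1.62, DESeq2's size factors gave 3 higher and a median of -2.01, and both gave 22 lower. With limma on log2(FPKM + 1), 4 were called higher and 4 lower and the median was -0.54, with 276 higher and 118 lower over all listed genes; this scale shrinks changes of genes near or under an FPKM of 1 by construction. The test against a log2 fold change of 1 called 8 genes lower and 6 higher, against 232 lower and 407 higher over all listed genes. Leaving out 1 library gave 8 higher in each case, 19 to 22 lower and a median of -1.22 to -1.09. Over all listed genes these omissions gave 502 to 515 higher and 356 to 379 lower. With the replicate number as a block, 8 were higher and 22 lower, against 525 and 387 over all listed genes. Samples with the same number did not visibly deviate together (correlations of -0.03 to -0.01 over 431 genes). With 3 preselected pairs this cannot exclude a shared harvest or batch. DESeq2's Wald test also gave 8 and 22 (527 and 388 over all listed genes), and limma on log2(FPKM + 0.1) gave 8 and 20 (512 and 363). A mean count of at least 10, which dropped *OsSCRL*, gave 8 and 21 (470 and 344 over the listed genes kept). Of 419 single-gene values under the alternatives, 357 kept the call, 62 lost it and 0 changed sign. Genes were preselected on these libraries, so calls that hold are no sign of stability.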

Other observations

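Several factor genes lack the GO process used to choose the 30 genes. *MID1* (*Os05g0442400*), a MYB-like factor annotated with drought stress in reproductive development, had 20, 34 and 31 counts in *Dap1* and 3, 2 and 6 in WT, a log2 fold change of 2.87 (standard error 0.449). *OsMyb4* (*Os04g0517100*), a MYB gene by its symbol alone, had 3, 1 and 2 counts in *Dap1* and 9, 13 and 9 in WT. Its log2 fold change was -2.34 (standard error 0.652). *MID1* was higher, whereas *OsMyb4* and the 5 MYB genes with the GO process were lower. Of the 4 bHLH genes without it, 3 were higher. *OsbHLH006* (*Os04g0301500*) had 17, 25 and 17 counts in *Dap1* and 5, 0 and 1 in WT, *OsbHLH167* (*Os09g0519100*) had 12, 10 and 11 in *Dap1* and 3, 2 and 2 in WT, and *Pl* (*Os04g0557800*) had 16, 3 and 14 in *Dap1* and 0, 1 and 0 in WT. *OsbHLH076* (*Os02g0671300*) was lower, with 37, 49 and 47 counts in *Dap1* and 142, 99 and 111 in WT, as were the 3 bHLH genes of the group. *OsSPL18* (*Os09g0507100*), similar to a squamosa-promoter binding-like protein, had 6, 7 and 6 counts in *Dap1* and 23, 21 and 32 in WT. *OsHAM4* (*Os06g0105350*), a GRAS factor annotated with shoot apical meristem indeterminacy, had 106, 124 and 144 counts in *Dap1* and 257, 254 and 216 in WT, and its log2 fold change of -0.999 (standard error 0.133) did not pass the threshold of 1 in size. The choice of these genes was made with their values in view.

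Of the 30 genes, 27 are placed in the nucleus (90% against 10.4% of all listed genes) and 20 have DNA binding as a GO function (66.7% against 6.70%). None has a KEGG class (0 of 30, against 176 of 925) and 5 have a second GO process; the rule removed genes by GO process and by a KEGG class, so it set these shares in part. By their identifiers 29 genes lie on 11 chromosomes, at most 5 on any one, and *NFYC6* carries no chromosome in its identifier.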
